A study of Schizosaccharomyces pombe with 384 samples.

Results

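Transcript levels of 8 genes of meiosis were read in vegetative cells of the fission yeast Schizosaccharomyces pombe: mei2, mei3, mei4, rec8, spo5, crs1, ssm4 and mcp5. The genes were taken by name, and all 8 were found among the 7259 genes of the table. The series compared 94 haploid strains of a genome-wide knockout collection, each lacking 1 gene and each sequenced in 4 libraries, with wild type in 8 libraries, that is 376 knockout libraries and 8 of wild type. All strains grew in rich YES medium with glucose and supplements at 32 °C in 96-well plates. No step of starvation or of induction of meiosis is described, and the density at harvest is not given in the sources used here. The libraries came from the 3′ ends of polyadenylated RNA, and levels are given as CPM, read counts scaled to a common library total. Strains are written as the deleted gene with Δ, as the labels name them. The study calls the libraries of a strain biological replicates, and the labels do not say how their cultures were separated. In bulk RNA, more cells with a transcript and more of it per cell cannot be told apart.

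Fission yeast enters meiosis when nutrients run out. The transcription factor Ste11 then turns on the mating genes and mei2. Mei2 is an RNA-binding protein that starts meiosis, and the kinase Pat1 holds it inactive in growing cells until Mei3, an inhibitor of Pat1, is made. A second barrier acts on RNA. In growing cells the YTH-family protein Mmi1 binds meiotic transcripts that carry a region called the determinant of selective removal, built of repeats of the hexamer UNAAAC, and hands them to the nuclear exosome for decay. During meiosis Mei2, together with the noncoding meiRNA from sme2, gathers Mmi1 in a nuclear dot, and the transcripts are spared. Transcripts known for this removal include those of mei4, a forkhead transcription factor of middle meiosis, rec8, the meiotic cohesin subunit, spo5, an RNA-binding protein of meiosis II and sporulation, crs1, a meiotic cyclin, ssm4, a dynactin subunit needed for the nuclear movement of meiotic prophase, and mcp5, the cortical anchor of dynein in that movement.

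The hexamer is read here as TNAAAC on the coding strand. The windows of 150 bases with the most matches are shown for mei4, ssm4, rec8 and mcp5, because these are the members with the densest clusters, and for mei2 as the contrast. Capitals mark the matches, each sequence runs 5′ to 3′ on the gene's own strand, and sequence and coordinates are from RefSeq, build ASM294v3.
mei4, chrII:1473870-1474019, plus strand: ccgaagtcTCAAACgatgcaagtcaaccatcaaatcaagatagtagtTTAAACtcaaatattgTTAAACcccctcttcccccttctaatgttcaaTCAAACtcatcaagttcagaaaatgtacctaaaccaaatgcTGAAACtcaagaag
ssm4, chrI:4535138-4535287, minus strand: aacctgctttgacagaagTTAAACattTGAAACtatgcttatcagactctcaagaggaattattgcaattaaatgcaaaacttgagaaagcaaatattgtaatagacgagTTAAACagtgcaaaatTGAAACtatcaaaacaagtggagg
rec8, chrII:2570125-2570274, plus strand: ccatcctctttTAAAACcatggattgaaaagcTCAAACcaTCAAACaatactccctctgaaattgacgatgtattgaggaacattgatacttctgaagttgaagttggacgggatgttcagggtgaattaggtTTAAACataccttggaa
mcp5, chrII:899537-899686, plus strand: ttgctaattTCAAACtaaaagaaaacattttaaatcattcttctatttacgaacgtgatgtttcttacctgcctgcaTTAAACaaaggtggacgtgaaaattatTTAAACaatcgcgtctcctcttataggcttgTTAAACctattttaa
mei2, chrI:4512993-4513142, minus strand: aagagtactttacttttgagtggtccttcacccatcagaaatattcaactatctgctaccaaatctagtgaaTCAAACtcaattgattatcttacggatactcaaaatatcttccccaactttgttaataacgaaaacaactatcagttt

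The mei4 window held 5 matches, and 0.0589% of the 5097 protein-coding sequences searched have a window of this length with as many. The windows of ssm4, rec8 and mcp5 held 4 each, a density that 0.667% of coding sequences reach. The best windows of spo5 and crs1 held 3, reached by 4.79%, whereas mei2 and mei3 had 1, which is also the median over coding sequences and is reached by 78.1%. Over the whole coding sequence the matches numbered 10 in mei4, 11 in rec8, 13 in ssm4, 18 in mcp5, 6 in spo5, 7 in crs1, and 1 each in mei2 and mei3. A match is a run of letters and not a measured binding site.

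**Figure D1:**
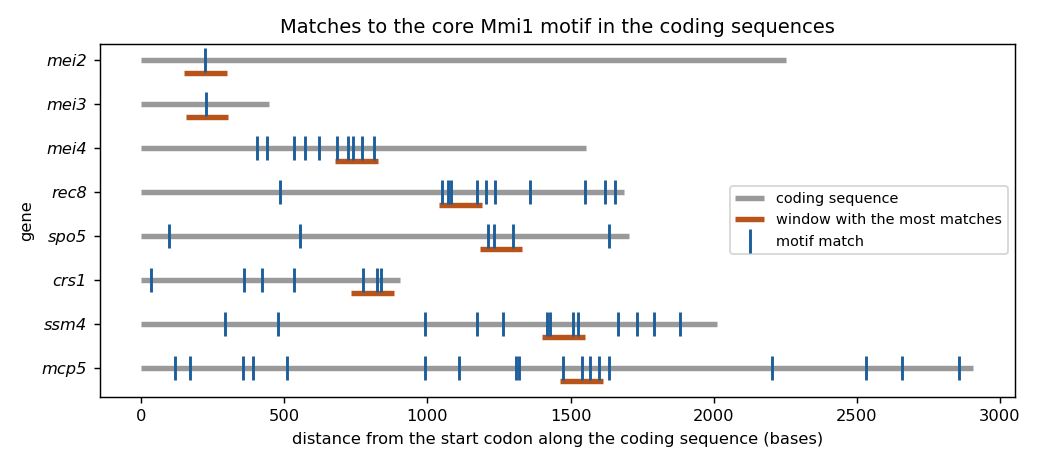
Matches to TNAAAC on the coding strand of the 8 genes. The horizontal axis is the distance from the start codon in bases along the coding sequence, blue ticks are matches, and the orange bar under each gene is the 150-base window with the most matches. The 6 genes known as Mmi1 targets hold 6 to 18 matches, mei2 and mei3 hold 1 each.

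The promoter of mei2 is shown because the gene whose levels followed it most closely over the strains, described further on, was ste11. Ste11 binds the TR box, whose core is CTTTGTT. Capitals mark this core in the 250 bases before the start of the RefSeq transcript, searched on both strands.
mei2, chrI:4515026-4515275, minus strand: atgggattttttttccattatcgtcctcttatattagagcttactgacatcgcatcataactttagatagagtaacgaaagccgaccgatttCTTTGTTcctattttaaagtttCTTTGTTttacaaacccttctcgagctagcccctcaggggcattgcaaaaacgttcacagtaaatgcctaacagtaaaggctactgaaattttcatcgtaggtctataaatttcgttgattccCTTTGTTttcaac

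It held 3 matches, starting 158, 136 and 13 bases before the transcript start. At least 1 match was present in 8.72% of 5112 promoters of this length, and none of the other 7 members had one. GTAAACA, the core of the FLEX element that Mei4 binds, had 1 match in the mei4 promoter and none in the other 7, against 14.8% of all promoters with a match. On the annotation, mei2 (SPAC27D7.03c) and ssm4 (SPAC27D7.13c) lie on chromosome I and the other 6 on chromosome II. The annotated spans of mei2, rec8 (SPBC29A10.14) and ssm4 overlap no other gene. Those of mei3 (SPBC119.04, 2 noncoding RNAs), mei4 (SPBC32H8.11, cdk9), spo5 (SPBC29A10.02, pcf1), crs1 (SPBC2G2.09c, ade9) and mcp5 (SPBC216.02, 2 antisense RNAs) do, and because the use of strand in counting is not given in the sources used here, reads of these 5 genes and of their neighbours cannot be told apart.

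The libraries held 1337548 to 2659644 reads on genes, so a single read was worth 0.298 to 0.848 CPM and 3 reads 0.893 to 2.54 CPM. The level of the deleted gene checks a label only where the 3′ tags lie in the deleted part, which is not known here. It was below all wild-type libraries in 27 of the 94 strains, overlapped them in 53 and was above them in 14, and in the 17 strains with a member called below it was lower in ath1Δ, moe1Δ, rpl1801Δ and rpl3602Δ, higher in ada2Δ, lem2Δ, mug154Δ and swd3Δ and overlapping in the other 9. The strains are therefore called by their labels throughout.

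All 8 transcripts were scarce in wild type. Their summed level averaged 16.1 CPM and ran from 12.9 to 24.8 CPM over the 8 libraries, while the median of the 5532 transcripts kept in wild type was 27.3 CPM for a single transcript. ssm4 was highest, with a lowest value of 2.82, a median of 5.88 and a highest of 13.3 CPM (6.59 ± 3.36, SD, n = 8, 91 reads in all). mei4 ran from 2.30 through a median of 2.69 to 6.99 CPM (3.56 ± 1.67, 48 reads), and it was below ssm4 in 6 of 8 libraries. rec8, with as dense a cluster of the hexamer as ssm4, was among the 3 lowest.

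mcp5 ran from 0 through 2.129 to 5.20 CPM (2.23 ± 1.51, SD, 32 reads), and mei2 from 0.577 through 1.52 to 4.23 CPM (1.82 ± 1.18, 27 reads). mcp5 exceeded mei2 in 4 of 8 libraries and mei4 exceeded mcp5 in 4 of 8, so neither pair of neighbours differed beyond its spread. mei3 had a median of 0.546 and a maximum of 2.39 CPM (0.827 ± 0.819, 11 reads, 2 libraries at 0). The remaining 3 were at the limit of detection: spo5 reached 1.17 CPM (0.445 ± 0.518, 6 reads, 4 libraries at 0), rec8 0.941 CPM (0.378 ± 0.425, 6 reads, 4 libraries at 0) and crs1 0.941 CPM (0.285 ± 0.405, 4 reads, 5 libraries at 0). Among mei3, spo5, rec8 and crs1 each neighbour in the order was higher in only 2 to 5 of 8 libraries.

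**Figure D2:**
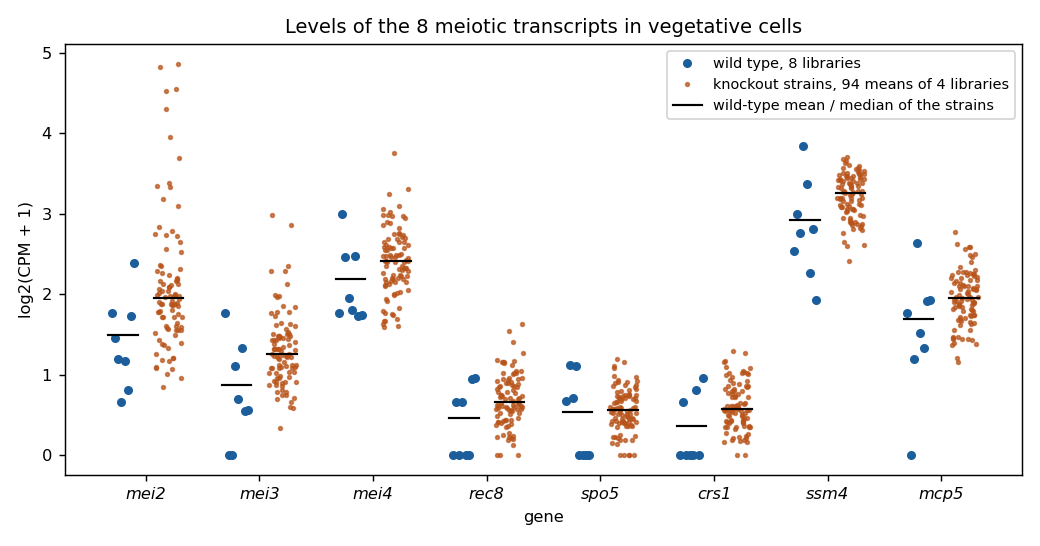
Levels of the 8 transcripts on a log2(CPM + 1) axis. Blue points are the 8 wild-type libraries, orange points the means of 4 libraries in each of the 94 knockout strains, and black lines the wild-type mean and the median of the strains. mei2 spreads furthest, up to a mean of 28.2 CPM, and rec8, spo5 and crs1 stay at or below 2.09 CPM.

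All calls of the members in the knockout strains were higher, but low levels left little room for lower calls. Each strain was set against wild type with limma on log2 CPM. A call needed a log2 fold change beyond 0.6 in either direction and a p no higher than 0.005. Values under a limit of just over 1 CPM were removed first, so mei3, rec8, spo5 and crs1 had too few values in wild type and left the fit, and 350 of the 752 combinations of member and strain were tested. Of these, 18 were called higher in 17 strains and 0 lower. The limit works against lower calls, because a strain with fewer than 3 values above it was not tested. mei2 was tested in 76 strains and mcp5 in 87, whereas mei4 and ssm4 were tested in 93 and 94. The 4 genes outside the fit had only 0 to 4 reads in a wild-type library. Over all transcripts and strains 2.112% of tests were called higher and 1.463% lower, and among transcripts with a wild-type mean of 1 to 10 CPM, the range of the tested members, 4.50% were higher and 0.804% lower. The members' 5.14% (18 of 350) is near the share for transcripts of their level. At an unadjusted p under 0.05 and any fold, 71 combinations were higher and 2 lower (mei4 in SPAC23A1.07Δ and lvs1Δ), and limma-voom on the reads of all 8 genes gave 27 higher and 0 lower, beside 2.404% and 1.211% of all its tests. With Benjamini-Hochberg adjustment over all transcripts of a strain, 14 combinations rose by more than 0.6 at an adjusted p under 0.05, beside 1.76% of all tests.

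The calls fell unevenly on the members. mei2 took 12 of the 18 in 76 strains tested, mei4 4 of 93, mcp5 2 of 87 and ssm4 0 of 94. Of the 5532 transcripts, 4.46% were called higher in 12 or more strains, 16.3% in 4 or more and 25.8% in 2 or more. mei2 leaves this fit whenever a wild-type library that carries 1 of its 6 usable values is left out. The total of 18 then falls to 5 in 5 of the 6 cases, and in the other it stays at 18 through more calls of mei4. On log2(CPM + 1), where no value is removed and all 8 genes are tested, mei2 was called in 13 strains.

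**Figure D3:**
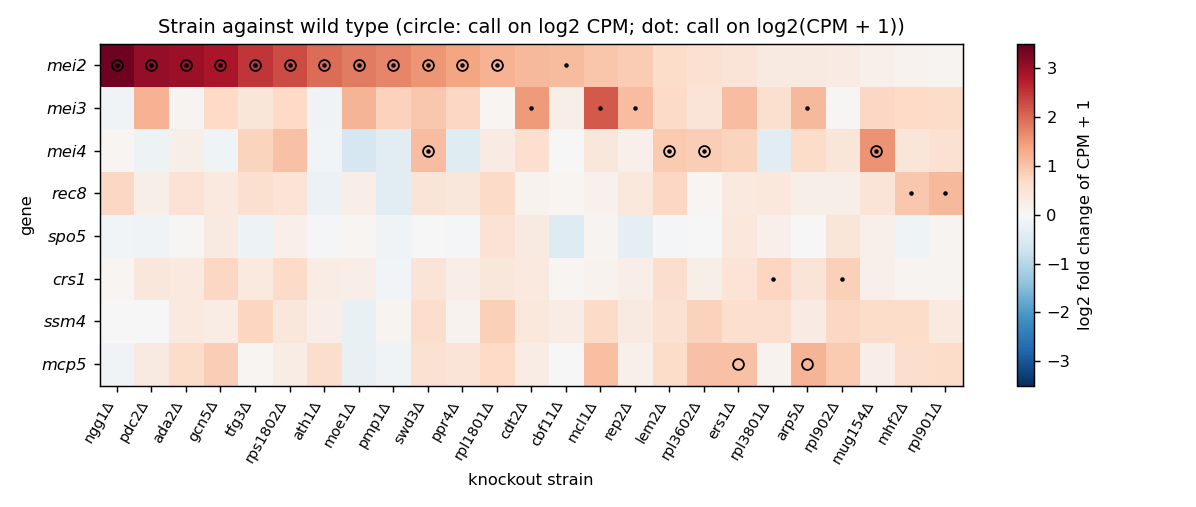
Log2 fold change of CPM + 1 against wild type for the 8 genes (rows) in the 25 strains (columns) with at least 1 call. Circles mark the calls on log2 CPM with low values removed, dots the calls on log2(CPM + 1). The mei2 row holds 12 circles, mei4 4 and mcp5 2, and the largest value outside mei2 is 2.145, for mei3 in mcl1Δ.

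mei2, the switch of meiosis, rose in 12 strains, with the largest fold changes in ngg1Δ, pdc2Δ, ada2Δ and gcn5Δ. In wild type it never exceeded 4.23 CPM. In ngg1Δ, which lacks a subunit of the acetyltransferase module of the SAGA coactivator, it was at 37.2, 19.5, 24.8 and 27.7 CPM in replicates 1 to 4 (27.3 ± 7.42, SD, n = 4). In gcn5Δ, which lacks the acetyltransferase itself, it was at 23.3, 14.7, 14.1 and 22.5 CPM (18.7 ± 4.94). In ada2Δ, which lacks another subunit of that module, it was at 39.4, 12.0, 12.8 and 25.5 CPM (22.4 ± 12.9). All 12 libraries lay above every wild-type library, which 1.862% of all tests did. The log2 fold changes were 3.73 ± 0.33 (SE) in ngg1Δ, 3.18 ± 0.33 in gcn5Δ and 3.30 ± 0.41 in ada2Δ, with limma adjusted p of 0.00019, 0.00018 and 0.00065. For each strain the exact permutation test over all ways to draw 4 of 12 libraries gave p = 0.00202, the smallest it can give (two-sided).

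In the other 2 SAGA strains mei2 overlapped wild type. In spt7Δ, which lacks the scaffold subunit, mei2 was at 9.67, 7.41, 2.152 and 3.18 CPM (5.605 ± 3.54), and was not called (log2 fold change 1.23 ± 0.45, adjusted p = 0.62). In spt8Δ, which lacks a subunit outside the acetyltransferase module, it was at 2.49, 0.569, 0 and 2.53 CPM (1.40 ± 1.31), none above the wild-type maximum, with too few values to be tested. Among the 10 pairs of SAGA strains, the 6 that set ada2Δ, gcn5Δ or ngg1Δ against spt7Δ or spt8Δ did not overlap in any library and differed by 13.1 to 25.9 CPM (exact permutation p = 0.0286 each, the smallest for 4 against 4, adjusted over the 10 pairs 0.0476). The 3 pairs within ada2Δ, gcn5Δ and ngg1Δ overlapped, with exact p of 0.11 to 0.63, and spt7Δ against spt8Δ had exact p = 0.0857. The share of all transcripts called higher was 3.626% in ngg1Δ, 4.039% in gcn5Δ and 3.707% in ada2Δ, against 0.3305% in spt7Δ and 0.1461% in spt8Δ, so the extent of the whole response moved with mei2, and its part in the mei2 difference was not tested.

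A further 4 strains had all 4 libraries above wild type, each with the exact permutation p of 0.00202. In tfg3Δ, which lacks a subunit of general transcription factors, mei2 was at 20.7, 10.3, 10.7 and 16.2 CPM (14.5 ± 4.97; log2 fold change 2.79 ± 0.34, adjusted p = 0.0012). The digits deposited for its replicate 4 also allow 1.62 CPM, and with that reading the call was lost (adjusted p = 0.0945). In rps1802Δ, which lacks a copy of ribosomal protein S18, mei2 was at 11.04, 14.4, 13.1 and 8.98 CPM (11.9 ± 2.39), the tightest of the raised strains together with ath1Δ at 11.099, 8.69, 7.031 and 10.9 CPM (9.43 ± 1.94). Their log2 fold changes were 2.54 ± 0.32 and 2.21 ± 0.32, with adjusted p of 0.0028 and 0.011.

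In pdc2Δ, which lacks an mRNA decapping factor, mei2 had its highest mean, 28.2 ± 24.9 CPM, from 64.0, 23.7, 17.8 and 7.11 CPM. All 4 libraries stood above wild type but they spanned a wide range, and the log2 fold change was 3.38 ± 0.52 (adjusted p = 0.0143). In moe1Δ, which lacks a translation initiation factor subunit, 3 of the 4 libraries stood above wild type (11.3, 13.2, 3.59 and 8.106 CPM; log2 fold change 2.02 ± 0.41, adjusted p = 0.0115). moe1 lies 36725 bases from mei2 and 15054 bases from ssm4, the nearest deleted gene to each, and ssm4 was not called in moe1Δ. The last 4 calls were smaller and overlapped wild type: swd3Δ (8.71, 13.3, 4.37 and 3.75 CPM, adjusted p = 0.051, not called with the replicate number as a block), ppr4Δ (mean 6.13 CPM, adjusted p = 0.26), rpl1801Δ (mean 5.27 CPM, adjusted p = 0.0095) and pmp1Δ (mean 9.126 CPM, adjusted p = 0.24). The deposited digits of pmp1Δ replicate 3 (16.2 CPM) also allow 1.62 CPM, and its call was lost with that reading. Of these strains only ngg1Δ, gcn5Δ, tfg3Δ and rps1802Δ were named by the rule, ada2Δ, spt7Δ, spt8Δ and pdc2Δ came from fixed groups of strains, and the rest were named after their values were seen.

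**Figure D4:**
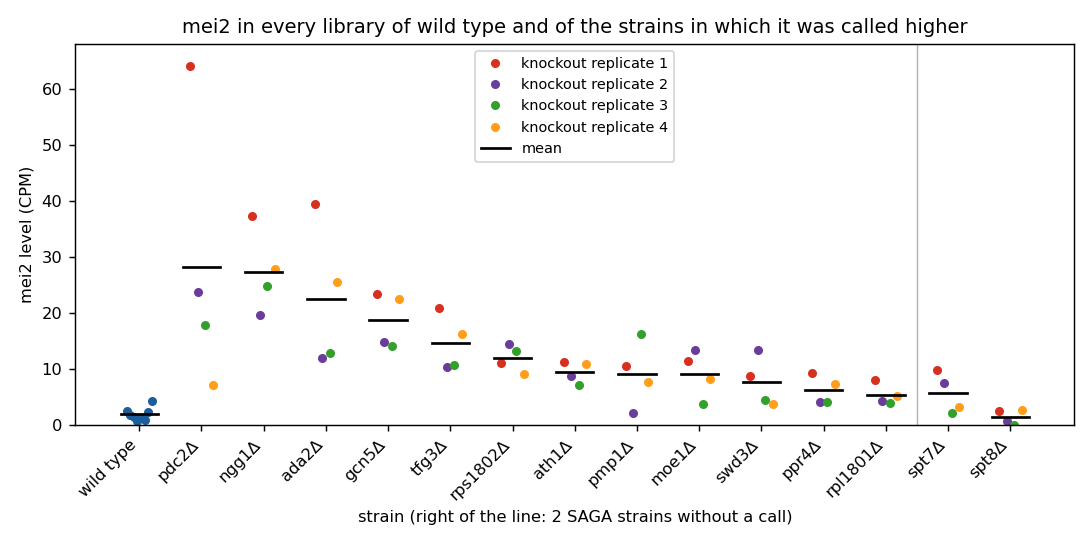
mei2 level in CPM in each of the 8 wild-type libraries and each of the 4 libraries of the 12 strains in which it was called higher, with spt7Δ and spt8Δ to the right of the line. Points are coloured by replicate number and bars are means. The libraries of ngg1Δ, gcn5Δ and ada2Δ lie between 12.0 and 39.4 CPM, above the wild-type maximum of 4.23 CPM, and those of spt8Δ lie below it.

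mei2 also differed with the replicate number. Over the 94 strains its median was 4.01 CPM in replicate 1, 2.1114 in replicate 2, 1.92 in replicate 3 and 3.13 in replicate 4. In ngg1Δ, gcn5Δ, ada2Δ, tfg3Δ and pdc2Δ replicate 1 was the highest of the 4 libraries, and each of these strains was still called without it. In sft1Δ, which lacks a Golgi SNARE protein, replicate 1 held 75.9 CPM and the others 5.024, 3.74 and 3.46 CPM, so 1 library made the mean, and mei2 was not called there.

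ste11, which encodes the activator of mei2, had the level most like that of mei2. Over the 95 groups, Pearson's r of mean log2(CPM + 1) was 0.85 for ste11, 0.81 for spk1, the MAP kinase of the pheromone pathway, and 0.77 for the noncoding RNA omt3, the 3 highest of 5530 transcripts compared. The groups share plates and wild type is 1 of them, so this is a description. Without ngg1Δ and pdc2Δ, the groups farthest out in mei2, r with ste11 was 0.82, and without the 12 strains with a mei2 call it was 0.73 over 83 groups. ste11 itself was at 7.75 ± 2.595 CPM in wild type (3.68 to 11.072 CPM) and was called higher in 19 strains and lower in 0.

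In ngg1Δ ste11 was at 58.9, 31.9, 48.9 and 31.5 CPM, in gcn5Δ at 34.6, 43.0, 27.5 and 25.5 CPM and in ada2Δ at 40.8, 33.1, 42.6 and 25.5 CPM, all above wild type (limma adjusted p of 0.00031, 0.00041 and 0.00032). It was also called in tfg3Δ (23.96 CPM, adjusted p = 0.0118), rps1802Δ (19.1 CPM, adjusted p = 0.0327), ath1Δ (17.6 CPM, adjusted p = 0.0363), moe1Δ (21.9 CPM, adjusted p = 0.0060) and pdc2Δ (71.1, 14.0, 41.8 and 13.7 CPM, adjusted p = 0.0548). In spt7Δ and spt8Δ, where mei2 was not called, ste11 averaged 13.4 and 5.15 CPM and was not called. Of the 14 genes of mating listed beside ste11 as its programme, 13 were tested in most strains, and 10 were called higher in gcn5Δ, 7 in ngg1Δ, 7 in pdc2Δ, 6 in ada2Δ and 6 in tfg3Δ, against 2 of 12 in spt7Δ and 1 of 13 in spt8Δ. In rps1802Δ, ath1Δ and moe1Δ they were 3, 1 and 0. No gene of the list was called lower with limma or limma-voom in the 5 strains with 6 or more calls or in spt7Δ and spt8Δ. In tfg3Δ and pdc2Δ 2.527% and 2.222% of all transcripts were called higher. The median log2 fold changes of the list were 1.94 in gcn5Δ, 1.63 in ngg1Δ, 1.0072 in ada2Δ, 1.19 in tfg3Δ and 0.97 in pdc2Δ, beside 0.01 for all transcripts over the strains. In pdc2Δ 3 of the 7 held at an adjusted p under 0.05, and in tfg3Δ 3 of the 6. Without replicate 1, 2 or 3 of pdc2Δ its 7 fell to 3, 4 and 3, and without replicate 1, 2 or 4 of tfg3Δ its 6 fell to 4.

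The largest changes in that list were among genes of pheromone and its signal, named here after their values were seen. spk1 rose from 10.5 CPM in wild type to 107, 89.1 and 115 CPM in ngg1Δ, gcn5Δ and ada2Δ. map2, which encodes the precursor of the mating pheromone P-factor, rose from 2.98 CPM to 79.7, 30.8 and 87.2 CPM. mfm2, 1 of 3 near-identical genes for the M-factor precursor whose reads may be shared, was at 176 CPM in gcn5Δ against 6.60 CPM in wild type.

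**Figure D5:**
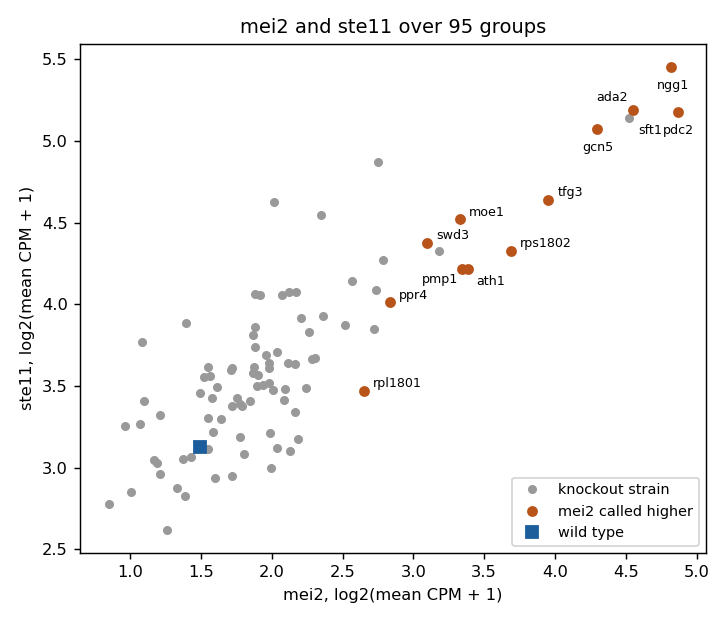
Mean level of ste11 against that of mei2, both as log2(mean CPM + 1), over the 95 groups. Grey points are knockout strains, orange points the 12 strains in which mei2 was called higher and the blue square wild type. Pearson's r is 0.85 over all groups and 0.73 over the 83 without the 12 strains.

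mei3, which encodes the Pat1 inhibitor, was too low in wild type for the main fit and is given on log2(CPM + 1), where it was called higher in 4 strains and lower in 0 with limma. Of all tests on that scale 2.224% were called higher and 1.253% lower, and at an unadjusted p under 0.05 mei3 was higher in 23 strains and lower in 0. In mcl1Δ, which lacks a replication factor, mei3 was at 8.9999, 9.98, 3.58 and 5.09 CPM (6.91 ± 3.065), all above the wild-type maximum of 2.39 CPM, a separation that 1.746% of all transcripts with a read show over the strains. The log2 fold change on that scale was 2.145 ± 0.33 (adjusted p = 0.0011, exact permutation p = 0.00202, the smallest possible), and it was called under all 14 alternatives that give a value. mcl1Δ was the only strain with all 4 libraries above wild type for mei3, and 5.093% of all transcripts were called higher in it. In cdt2Δ, which lacks the adaptor of a ubiquitin ligase of S phase, mei3 was at 1.53, 5.04, 6.91 and 2.99 CPM (log2 fold change 1.48 ± 0.35, adjusted p = 0.0168), and the call was lost without replicate 3. The calls in rep2Δ (mean 2.605 CPM, adjusted p = 0.15) and arp5Δ (mean 2.92 CPM, adjusted p = 0.32) were lost under 9 of 14 alternatives each. In SPBC530.07cΔ a single library of 18.6 CPM stood beside 4.54, 1.29 and 0.627 CPM, and mei3 was not called.

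The 4 strains with a mei3 call had no mei2 call. mei2 in mcl1Δ was at 15.2, 3.68, 1.02 and 3.70 CPM and was not called (adjusted p = 0.37), although ste11 (18.3 CPM) was. mei3 averaged 3.38 CPM in pdc2Δ and was not called there on log2(CPM + 1). Over the 95 groups r between mei2 and mei3 was 0.24. The transcripts most like mei3 were cta3, a cation-transporting ATPase (r = 0.65), the noncoding RNA SPNCRNA.1258 (0.59) and SPACUNK4.10 (0.58).

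mei4, the forkhead factor with the densest hexamer cluster, was called higher in 4 of 93 strains tested. Beside this stand 2.112% of all tests and 4.50% of those of transcripts with a wild-type mean of 1 to 10 CPM. In mug154Δ it was at 16.3, 16.1, 9.79 and 7.64 CPM (12.5 ± 4.41), all above the wild-type maximum of 6.99 CPM, with a log2 fold change of 1.85 ± 0.32 (adjusted p = 0.0049, exact permutation p = 0.00202, the smallest possible). This call was kept under all 26 alternatives. The others overlapped wild type: swd3Δ, which lacks a subunit of the Set1 methyltransferase complex, at 8.71, 12.2, 5.00 and 7.92 CPM (log2 fold change 1.30 ± 0.32, adjusted p = 0.047), lem2Δ, which lacks an inner nuclear membrane protein, at 5.22, 8.12, 8.84 and 7.01 CPM (1.13 ± 0.30, adjusted p = 0.088), and rpl3602Δ at 6.70, 7.30, 7.57 and 6.14 CPM (1.08 ± 0.28, adjusted p = 0.0456). They were lost under 2, 6 and 5 of the 26 alternatives. In rps1802Δ mei4 averaged 8.88 CPM but was not called, and the digits of its replicate 3 (15.8 CPM) also allow 1.58 CPM. Without the wild-type library of 6.99 CPM, 16 strains were called for mei4, and without knockout replicate 2, 1 was.

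sme2, which encodes the meiRNA that binds Mei2 and is itself a target of Mmi1, was called higher in all 4 strains with a mei4 call. In wild type it was at 4.66 ± 2.135 CPM (2.33 to 7.83 CPM). In mug154Δ it was at 134, 69.9, 65.4 and 47.6 CPM (log2 fold change 4.11 ± 0.35), its highest mean in any strain, and in lem2Δ at 22.8, 35.7, 37.6 and 43.6 CPM (3.00 ± 0.32), all above wild type. In swd3Δ replicate 1 held 116 CPM and the others 15.1, 19.99 and 7.50 CPM (adjusted p = 0.0372), and in rpl3602Δ it averaged 14.2 CPM (1.65 ± 0.34, adjusted p = 0.0203). Such a high replicate 1 was also present in tfg3Δ (69.0 CPM, others 7.43 to 17.5 CPM), moe1Δ (80.4 CPM, others 5.30 to 13.7 CPM) and spt7Δ (60.6 CPM, others 6.06 to 8.61 CPM). sme2 was called higher in 31 strains in all, and over the 95 groups r between mei4 and sme2 was 0.43. The transcripts most like mei4 were SPAC343.20 (r = 0.51), the noncoding RNA SPNCRNA.1511 (0.50) and ppk31 (0.50). mug8 was the only other gene on the list of further Mmi1 targets with enough reads. It was called higher in mug154Δ (10.23 CPM) and lem2Δ (10.102 CPM) against 5.59 CPM in wild type, with adjusted p of 0.0179 and 0.0641. It was also called higher in arp5Δ (11.06 CPM, limma adjusted p = 0.378), which had no mei4 call, and lower in 1 strain.

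ssm4 and mcp5, both of the dynein machinery that moves the nucleus in meiotic prophase, took few calls. ssm4 was detected in every library, from 1.09 to 19.4 CPM over the 376 knockout libraries, and its strain means ran from 4.31 to 12.08 CPM. It was called in 0 of 94 strains with limma, with 14 higher and 0 lower at an unadjusted p under 0.05 and 1 call with limma-voom (SPBC16A3.17cΔ, 11.13, 14.6, 9.77 and 11.6 CPM). Its highest mean was in rpl1801Δ (15.0, 15.9, 9.63 and 7.88 CPM; log2 fold change 0.97 ± 0.35, adjusted p = 0.0474), which missed the threshold on p. The median log2 fold change of ssm4 over the strains was 0.45, beside 0.139 for transcripts with a wild-type mean of 1 to 10 CPM. Of the 94 strain means, 78 lay above the wild-type mean, and for the other members from 51 (spo5) to 81 (mei3) did. All strains were set against the same 8 wild-type libraries, so these are not separate rises.

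mcp5 was called higher in arp5Δ, which lacks a subunit of the Ino80 remodeller (8.51, 4.67, 5.597 and 4.54 CPM; log2 fold change 1.29 ± 0.34, adjusted p = 0.38), and in ers1Δ, which lacks a factor of heterochromatic RNA interference (5.63, 4.65, 4.796 and 4.44 CPM; 1.0735 ± 0.31, adjusted p = 0.0687). Both overlapped the wild-type maximum of 5.20 CPM, neither held with adjustment and both were lost on log2(CPM + 1). In mcl1Δ mcp5 was at 4.50, 5.25, 7.16 and 3.70 CPM with an adjusted p of 0.0478, but its log2 fold change of 1.115 ± 0.33 missed the threshold on p. Among the members, mei4 resembled mcp5 (r = 0.38) and ssm4 (0.37) most over the 95 groups. The transcripts most like ssm4 were bot1, a mitochondrial ribosomal protein (r = 0.55), meu10 (0.54) and taf12 (0.54), and none passed 0.43 for mcp5.

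rec8, spo5 and crs1 were near the limit of detection in all strains. rec8 had no read in 136 of the 376 knockout libraries, spo5 in 174 and crs1 in 158, and no library exceeded 5.05, 2.81 and 3.93 CPM. On log2(CPM + 1) rec8 and crs1 were each called higher in 2 of 94 strains and lower in 0. This is near the share of all tests on that scale, 2.224% higher and 1.253% lower. rec8 was called in rpl901Δ (3.18, 3.05, 1.13 and 1.00 CPM, log2 fold change 1.14 ± 0.27, adjusted p = 0.0165) and in mhf2Δ (mean 1.64 CPM on 14 reads, adjusted p = 0.0393). In rpl901Δ all 4 libraries lay above the wild-type maximum of 0.941 CPM on 15 reads in all, a separation that 1.746% of all transcripts with a read show over the strains. crs1 was called in rpl902Δ (mean 1.25 CPM on 8 reads, adjusted p = 0.0842) and rpl3801Δ (mean 1.13 CPM on 8 reads, adjusted p = 0.037). spo5 was called in none with limma, and 0 strains passed an unadjusted p under 0.05 or a limma-voom call. The 2 rec8 calls were lost under 2 of 14 alternatives each, and the crs1 calls under 8 in rpl902Δ and 9 in rpl3801Δ. All rest on 8 to 15 reads in 4 libraries.

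Genes of the removal machinery took few calls. Of 19 names listed for Mmi1, its partner Erh1, the MTREC complex, the exosome and the TRAMP complex, 17 were in the table. mmi1 itself was at 87.5 ± 18.2 CPM in wild type and its strain means ran from 66.5 to 108 CPM. It was called in 0 of 94 strains by limma and by limma-voom, with 1 strain at an unadjusted p under 0.05. In the 17 strains with a member call, 1 of 289 tests of the 17 genes was called higher by limma and 0 lower (15 higher and 8 lower at an unadjusted p under 0.05), where 3.052% of all tests were called higher and 2.069% lower. limma-voom also called 1 higher and 0 lower. In mcl1Δ mtr4, the TRAMP helicase, rose from 68.6 to 135 CPM (log2 fold change 0.97 ± 0.15, adjusted p = 0.0014), and in rpl1801Δ the 1 gene called was rrp6, the nuclear exosome ribonuclease, which rose from 48.6 to 84.2 CPM (0.82 ± 0.19, adjusted p = 0.0049). The other calls over the 94 strains were in red5 (4 strains), rrp6 (7 in all) and air1 (4).

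The only strain of the 94 that lacks a listed factor of removal was air1Δ, whose gene encodes a zinc knuckle protein of nuclear RNA surveillance. No member was called in it. rec8 and crs1 had 0 reads in its 4 libraries, mei4 averaged 5.29 CPM, ssm4 9.79 CPM, mcp5 2.75 CPM, mei2 3.95 CPM, mei3 1.79 CPM and spo5 0.473 CPM. The largest log2 fold change among the tested members was 0.92 ± 0.34 for mei2 (adjusted p = 0.17). The level of air1 in these libraries overlapped wild type, which leaves its label unchecked.

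Genes of early, middle and late meiosis were counted in the 12 strains in which mei2 rose. Marker genes were mfr1 and spo4 of middle and late meiosis, and moa1, bqt2 and mde2, which are also among the 21 early genes below. They were picked by hand and averaged at most 0.0748 CPM in wild type, so they do not stand for the other genes below. Together they had 4 reads in the 8 wild-type libraries and 0 to 9 reads per strain with a mei2 call, with 9 in the 4 libraries of ngg1Δ. Their sum stayed at or below 3.97 CPM in every knockout library. In the 17 strains with a member call, these 12 among them, 3.052% of all tests were called higher and 2.069% lower. Among transcripts with a wild-type mean of 1 to 10 CPM, 4.50% of tests over all strains were higher and 0.804% lower. Of 21 genes listed for early meiosis 6 to 8 were tested in a strain. The listed name hrs1 matched SPBC2G2.12, which may be another gene of that name than the meiotic one. It was at 187 CPM in wild type, was tested in all 94 strains and was called in 0. With it included, 5 of 87 tests over the 12 strains were called higher and 0 lower. Of these 4 were in rpl1801Δ, where 11.94% of all transcripts were called higher: mcp7, a partner in meiotic recombination (8.59 against 2.18 CPM, adjusted p = 0.00022), rec24, rec11 and bqt1. The other was in gcn5Δ (rec10, 12.2 against 7.035 CPM, adjusted p = 0.0506). limma-voom, which tests all 21, called 10 of 252 tests higher in 4 strains and 1 lower, beside 2.404% and 1.211% of all its tests. For 14 genes of middle and late meiosis, 4 of 83 tests over the 12 strains were called higher and 4 lower. Of these genes isp3, a spore surface protein, was at 49.8 CPM in wild type. It was lower in ada2Δ (23.8 CPM), ngg1Δ (27.9 CPM), tfg3Δ (25.1 CPM) and rps1802Δ (21.1 CPM) and higher in pdc2Δ (193 CPM). mde10, a protease of the spore envelope, was called higher in ngg1Δ (30.2 CPM) and ada2Δ (28.4 CPM) against 17.8 CPM, and spn7, a meiotic septin, in rpl1801Δ (3.92 against 2.32 CPM). limma-voom called 12 of 160 tests of this list higher and 4 lower, with 3 genes higher in each of ngg1Δ, gcn5Δ and ada2Δ. Of the other meiotic septins, spn6 had its highest mean in gcn5Δ (7.83 CPM against 0.515 CPM in wild type), as did spn5 (4.65 against 0.612 CPM), both named after their values were seen. nrd1, an RNA-binding repressor of sexual development, was lower in ngg1Δ, gcn5Δ and ada2Δ (95.03, 88.5 and 95.02 CPM against 145 CPM, log2 fold changes of -0.60, -0.72 and -0.61).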

How the data were processed

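Libraries were made from polyadenylated RNA with a 3′ mRNA-Seq kit. The authors aligned reads with STAR 2.6.1b to ASM294v2. HTSeq 0.9.0 and Subread 1.6.2 are also listed in the submitters' processing notes, which of them counted is not given in the sources used here, and nor is the use of strand. The deposited table holds read counts per gene scaled to CPM, another unit than assumed when the tests were chosen, because 78.8% of its values had lost the decimal point. Since all values of a library are whole multiples of the CPM of 1 read, the points were restored from that step. 12.7% of values allowed several places and were set mainly by the level in the other libraries of the same group, a strain or wild type. This favours places near the other replicates. 0.0761% of values remained uncertain. The deposited CPM imply totals of 0.768 to 1.45 times the reads on genes. There were 0 unused sample columns.

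Each strain's 4 libraries were compared with the 8 wild-type libraries with limma 3.58.1 (R 4.3.3) on log2 CPM. Values under a limit of just over 1 CPM were removed, transcripts with 3 of 4 strain and 6 of 8 wild-type values kept, and calls made at a log2 fold change of 0.6 and p of 0.005, after the thresholds of the study's methods. Adjusted p-values are Benjamini-Hochberg over the strain's transcripts. Alternatives were pseudocounts of 1 and 0.5, limma-voom on the recovered reads, other scalings, floors, wild-type wells, a replicate block and left-out libraries. Fits were tested on simulated data. Sequences were read from RefSeq ASM294v3 with Python 3.11.15, where 5105 of 5106 matched protein-coding genes overlap the file's coordinates and chromosome lengths are equal.

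The members and gene lists were chosen with earlier results of these data known. Strains named were the 4 with the smallest p for a member, or for members outside the fit the highest means among strains with all libraries above wild type, and fixed groups of strains. Also named were the 3 most like transcripts and up to 4 genes a list in swd3Δ, the strain with the most member calls. Exceptions are stated.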

Additional observations from a re-analysis of the deposited data

Results flagged for a closer look

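The check for a single outlying library covered 56 groups, each 1 member in wild type (8 libraries) or in 1 named strain (4 libraries). In 4 of the 56, all for mei2 in a knockout strain, 1 library lay far from the rest, where chance gives about 1 in 20. Of the 56, mei2 in sft1Δ and mei3 in SPBC530.07cΔ were added by hand, so the count of 4 is no measure of an excess. mei2 was at 75.9 CPM in 1 library of sft1Δ against 3.46 to 5.024 CPM in the others, at 6.97 CPM in pap1Δ against 1.73 to 2.09 CPM, at 2.17 CPM in elp3Δ against 0.582 to 0.644 CPM, and at 1.28 CPM in dbr1Δ against 0.587 to 0.688 CPM. The last 2 rest on 1 to 4 reads a library.

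The mei2 level differed between SAGA strains. ada2Δ exceeded spt7Δ by 16.8 CPM and spt8Δ by 21.02 CPM, gcn5Δ exceeded them by 13.1 and 17.3 CPM, and ngg1Δ by 21.7 and 25.9 CPM. Each of these 6 of 10 pairs had no overlap in 4 libraries against 4 (exact permutation p = 0.0286, adjusted 0.0476).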

How the results depend on the processing

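The 18 calls of a higher member became 4 with the floor read as log2 CPM, 1 with wild-type well A2 only, 41 with well A1 only, 32 with CPM from reads on genes, and 5 to 32 without each replicate or wild-type library in turn. In the settings with 5 calls or fewer mei2, with exactly 6 of 8 wild-type values kept, was no longer tested, and in those with 32 or more it had 11 to 18 calls. On log2(CPM + 1), an alternative added after seeing this, mei2 calls (13) ran from 12 to 21 with a library left out, the 21 without the wild-type library of well A2, replicate 4, with 4.23 CPM. Of the 18 calls, 8 were kept under every alternative with a value (mei2 in ngg1Δ, gcn5Δ, ada2Δ, rps1802Δ, ath1Δ, moe1Δ and pdc2Δ, mei4 in mug154Δ) and 0 reversed. No member was called lower under any alternative, though the low levels left little room for such a call. Counts of Ste11 programme genes beside ste11, added after seeing the data, were 7 to 8 in ngg1Δ, 10 in gcn5Δ, 6 to 7 in ada2Δ, 4 to 7 in tfg3Δ and 3 to 8 in pdc2Δ with a library left out.

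Replicate numbers are shared across strains, and each number covers the same wells, but the sources used here do not tie a number to a plate or day. Same-numbered libraries correlated at a median r of 0.274 in their deviations against -0.121 for others, over 0.1 in 95.7% of 564 pairs and not in all, and 334 of 376 libraries correlated best with their own number. The replicate block gave 44 calls of a higher member and the same libraries without the block 45, and of the 18 calls the block alone ended that of mei2 in swd3Δ. With few reads behind each member, depth limits all statements on rec8, spo5 and crs1.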
